A study of Homo sapiens with 36 samples.

Results

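PHF19 and MTF2 regions of DU145 control cells were compared, to describe where the 2 Polycomb-like proteins share a place on chromatin and where only 1 of them was called. PHF19 regions were the 1245 regions of the authors' deposited table of PHF19 ChIP against input. MTF2 regions were the 1474 merged regions with a peak in both deposited MTF2 lists. An overlap of 1 bp or more split them into 776 shared PHF19 regions, 469 PHF19-only regions and 740 MTF2-only regions, 1985 in all. The 10 peak lists of control cells that were used hold 110359 peaks.

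The series holds 36 samples of ChIP-seq and RNA-seq. DU145 is a human prostate cancer cell line, and control cells (shCTR) carry a control short hairpin RNA. The libraries used here are 2 replicates each of ChIP with antibodies to PHF19, MTF2, EZH2, SUZ12 and H3K27me3, all from shCTR cells. The labels name an antibody to the fly histone H2Av, used with fly chromatin as a spike-in, for both MTF2 and both H3K27me3 libraries, for PHF19 replicate 2, and for EZH2 and SUZ12 replicate 1. The study's methods describe the spike-in for EZH2 and SUZ12 without that limit. A figure legend of the study gives the replicate 2 reads of both as scaled by fly spike-in reads. No read totals come with the lists, which leaves library depth unknown. The study calls the replicates biological, and the labels do not say whether they came from separate cultures. The antibodies came from Cell Signaling (PHF19 and EZH2), Proteintech (MTF2), Abcam (SUZ12) and Millipore (H3K27me3).

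Polycomb repressive complex 2 places methyl groups on lysine 27 of histone H3 through its catalytic subunit EZH2, and SUZ12 is the core subunit that holds the complex together. PHF19 and MTF2 are Polycomb-like proteins that join this core, bind CpG-rich DNA through a winged-helix domain and have a Tudor domain that can bind H3K36me3. H3K27me3 marks silent genes, many of which encode developmental regulators.

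The sequences at the centre of 5 regions are shown because CpG content is among the features compared between the classes. They are taken from the promoter regions with the highest printed peak values of each class. These values are PHF19 replicate 1 tags for shared and PHF19-only regions and the MTF2 replicate 2 score for MTF2-only regions. The order of the MTF2-only regions is not firm, because 11 of their promoter regions have the same score of 3100, which may be a ceiling. Each is 200 bases of the plus strand of GRCh37, and capitals mark each CG dinucleotide, which reads the same on both strands. TCHH (chr1:152083020-152083219, shared, in a coding exon), PAX9 (chr14:37127237-37127436, PHF19-only, in an intron), MLLT6 (chr17:36859306-36859505, PHF19-only, outside the gene body), VENTX (chr10:135050793-135050992, MTF2-only, outside the gene body) and DLGAP4 (chr20:34892999-34893198, MTF2-only, outside the gene body) hold 13, 13, 10, 22 and 2 CG dinucleotides.
TCHH: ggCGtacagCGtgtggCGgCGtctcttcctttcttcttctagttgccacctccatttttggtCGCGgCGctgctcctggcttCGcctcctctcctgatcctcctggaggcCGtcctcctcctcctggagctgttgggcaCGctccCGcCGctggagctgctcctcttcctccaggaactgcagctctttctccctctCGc
PAX9: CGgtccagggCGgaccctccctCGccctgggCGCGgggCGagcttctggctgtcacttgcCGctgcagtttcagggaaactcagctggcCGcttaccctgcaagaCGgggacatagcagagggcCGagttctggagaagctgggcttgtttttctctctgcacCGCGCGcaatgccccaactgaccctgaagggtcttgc
MLLT6: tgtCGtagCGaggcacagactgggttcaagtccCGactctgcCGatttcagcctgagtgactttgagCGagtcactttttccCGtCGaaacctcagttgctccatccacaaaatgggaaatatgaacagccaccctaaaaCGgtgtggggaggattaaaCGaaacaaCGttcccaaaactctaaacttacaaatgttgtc
VENTX: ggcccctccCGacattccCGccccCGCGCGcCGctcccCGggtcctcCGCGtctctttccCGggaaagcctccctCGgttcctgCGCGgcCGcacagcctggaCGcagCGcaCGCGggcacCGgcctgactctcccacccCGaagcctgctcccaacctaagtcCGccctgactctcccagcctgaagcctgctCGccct
DLGAP4: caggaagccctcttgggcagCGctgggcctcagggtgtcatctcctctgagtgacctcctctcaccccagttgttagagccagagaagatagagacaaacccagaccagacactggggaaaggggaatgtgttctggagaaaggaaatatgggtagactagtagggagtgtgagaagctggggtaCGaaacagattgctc

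Some replicate 1 lists stood apart from the other lists in their chromosomes. Chromosome 14 held 627 (24.9%) of the 2516 MTF2 peaks of replicate 1, against 5.66% of the 32254 MTF2 peaks of replicate 2. It also held 37.8% of EZH2 and 48.1% of SUZ12 peaks of replicate 1, against 3.48% and 3.02% in replicate 2. Chromosome 5 held 10.6% of MTF2, 288 of 2060 EZH2 and 20.6% of SUZ12 peaks of replicate 1. On chromosome 14, 583 of the 627 MTF2 peaks of replicate 1 (93.0%) lay between 20 and 60 Mb, a stretch chosen after the values were seen, where 26.9% of the replicate 2 peaks of that chromosome lay. PHF19 replicate 1 had 7.28% of its 1072 peaks on chromosome 14. Of these 78 peaks, 49 (62.8%) lay between 20 and 60 Mb, against 34.8% in PHF19 replicate 2. The same stretch held 71 of the 85 MTF2-only regions of chromosome 14 (83.5%), against 56.8% of the shared and 57.9% of the PHF19-only regions there. Chromosomes 5 and 14 carried 77 (10.4%) and 85 (11.5%) of the 740 MTF2-only regions, 49 (10.4%) and 38 (8.10%) of the 469 PHF19-only regions, and 43 (5.54%) and 37 (4.77%) of the 776 shared regions. In the authors' table, the median over shared regions of the authors' mean log2 read concentration of the input was 5.68 on chromosome 14 and 5.01 on chromosomes other than 5 and 14. In PHF19-only regions these medians were 4.64 and 4.41. The part of this skew in the results was not tested, and values without chromosomes 5 and 14, chosen after the data were seen, are given beside the main comparisons.

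**Figure D1:**
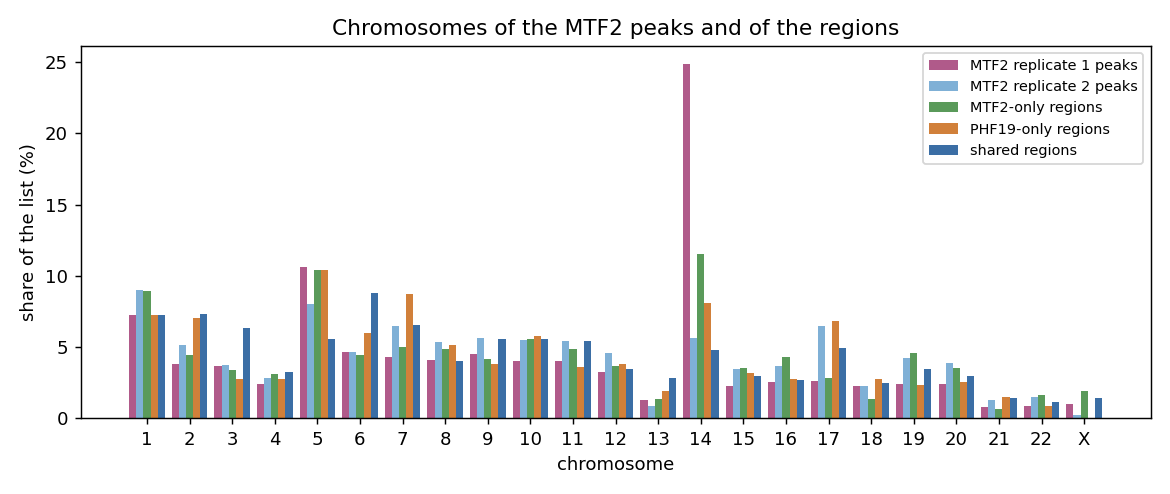
Share of each list (percent) by chromosome, for the MTF2 peaks of replicate 1, the MTF2 peaks of replicate 2, the MTF2-only, the PHF19-only and the shared regions. Chromosome 14 holds 24.9% of MTF2 replicate 1 peaks, 5.66% of replicate 2 peaks, 11.5% of MTF2-only, 8.10% of PHF19-only and 4.77% of shared regions.

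With the authors' table, more PHF19 regions met an MTF2 region than did not, and the regions left in the PHF19-only class mostly had an MTF2 peak in replicate 2. Shared regions were 62.3% of the PHF19 regions, and the 734 MTF2 regions that met them were 49.8% of the MTF2 regions (64.6% and 53.1% without chromosomes 5 and 14). Of the 469 PHF19-only regions, 405 (86.4%) had an MTF2 peak in the replicate 2 list alone, 2 in the replicate 1 list alone and 62 (13.2%) in neither. Of the 740 MTF2-only regions, 401 (54.2%) had a PHF19 peak in the replicate 2 list alone, 2 in the replicate 1 list alone, 18 in both lists and 319 (43.1%) in neither. The class names describe the authors' table for PHF19 and calls in both replicates for MTF2, and not the absence of the other protein. A PHF19 peak stood in both replicate lists in 549 shared regions (70.7%) and in 197 PHF19-only regions (42.0%). The number of MTF2 peaks differed 2516 to 32254 between replicates, and the shared part depended on the list. With MTF2 replicate 2 alone 94.8% of PHF19 and 3.67% of MTF2 regions were shared, and with every list from replicate 2 the shares were 38.8% and 16.0%. Distances were taken between the PHF19 and MTF2 regions defined above, so a peak of the other protein in a single list did not count. Regions that touched were shared by the class rule and were left out. No expected distance was computed. The median distance to the nearest region of the other protein was 421 kb for PHF19-only and 297 kb for MTF2-only regions, and 61 (13.0%) and 65 (8.78%) lay within 10 kb.

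**Figure D2:**
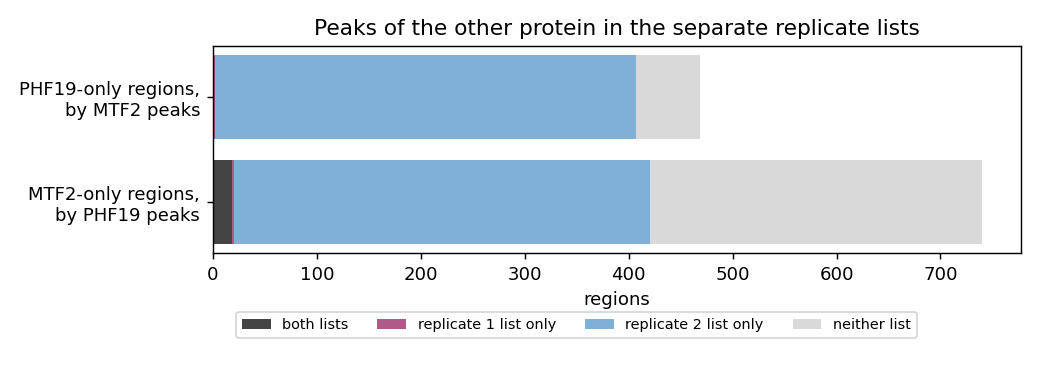
Number of PHF19-only regions by MTF2 peaks, and of MTF2-only regions by PHF19 peaks, in the 2 replicate lists taken separately. The replicate 2 list alone holds a peak of the other protein in 405 of 469 and 401 of 740 regions, and neither list does in 62 and 319.

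Shared regions carried EZH2 far more often than regions of either single class. A region of EZH2 called in both replicates lay in 433 (55.8%) of the shared regions, 28 (5.97%) of the PHF19-only and 42 (5.68%) of the MTF2-only regions, beside 1.77% of windows of 2.5 kb to each side of the 20163 protein-coding start sites. With the EZH2 list of replicate 1 alone the shares were 64.9%, 12.6% and 20.5%, and with replicate 2 alone 78.2%, 22.2% and 29.5%. When the EZH2 list alone changed, the lower value of the shared class was above the higher value of both other classes, whereas the PHF19-only and MTF2-only classes overlapped. With every list from replicate 1 the shares were 72.5%, 9.46% and 27.7%, and from replicate 2 they were 21.5%, 0.0345% and 0.509%. The difference between shared and PHF19-only regions was then 63.0 and 21.4 points, against 49.8 in the main result. Seen from EZH2, 423 of its 500 regions (84.6%) met both a PHF19 and an MTF2 region, 26 met PHF19 alone, 43 met MTF2 alone and 8 met neither. Without chromosomes 5 and 14 the shares of regions with EZH2 were 58.0%, 5.50% and 6.92%. Counting EZH2 in the central 1 kb alone gave 55.5%, 5.97% and 5%. In the EZH2 list of replicate 2 the median score, among regions with a peak, was 268 in shared, 100 in PHF19-only and 126 in MTF2-only regions. In the replicate 1 list these medians were closer together, at 128, 76.1 and 82.9.

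SUZ12 was called in few regions. All 62 SUZ12 regions called in both replicates met both a PHF19 and an MTF2 region, and 61 shared regions (7.86%) held one, against 0 PHF19-only and 0 MTF2-only regions and 0.203% of the windows around start sites. The replicate 1 list alone gave 12.6%, 1.71% and 8.38%, and the replicate 2 list 22.3%, 1.28% and 2.16%. Without chromosomes 5 and 14, replicate 1 gave 11.5%, 0.785% and 1.73%. When every list was taken from replicate 1, SUZ12 peaks lay in 15.5% of shared and 18.3% of MTF2-only regions, so the order of these classes turned.

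H3K27me3 was more frequent than EZH2 in each class. It was called in both replicates in 733 (94.5%) of the shared, 580 (78.4%) of the MTF2-only and 313 (66.7%) of the PHF19-only regions, beside 9.31% of the windows around start sites. Replicate 1 alone gave 96.4%, 90.7% and 73.8%, and replicate 2 alone 96.4%, 77.2% and 72.3%. The replicate values of the 3 classes did not overlap, though those of MTF2-only and PHF19-only regions were close in replicate 2. The shares depended on the lists that set the classes. With MTF2 replicate 2 alone they were 87.7%, 20.9% and 16.9%, and with every list from replicate 2 they were 57.9%, 14.7% and 5.93%. With MTF2 replicate 1 alone they were 94.5%, 44.7% and 67.5%, so the order of the single classes turned. Seen from H3K27me3, 7771 of its 9256 regions (84.0%) met no region of either protein and 7.44% met regions of both. Without chromosomes 5 and 14 the shares were 95.1%, 82.0% and 68.3%. The most frequent state of both single classes was H3K27me3 without EZH2, in 286 (61.0%) PHF19-only and 542 (73.2%) MTF2-only regions, while 420 (54.1%) shared regions carried both. Regions with no EZH2, SUZ12 or H3K27me3 peak in any list were 4 of the shared, 84 (17.9%) of the PHF19-only and 31 (4.19%) of the MTF2-only regions. The median H3K27me3 score was 616 in shared, 324 in PHF19-only and 479 in MTF2-only regions in replicate 1, and 634, 281 and 272 in replicate 2.

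**Figure D3:**
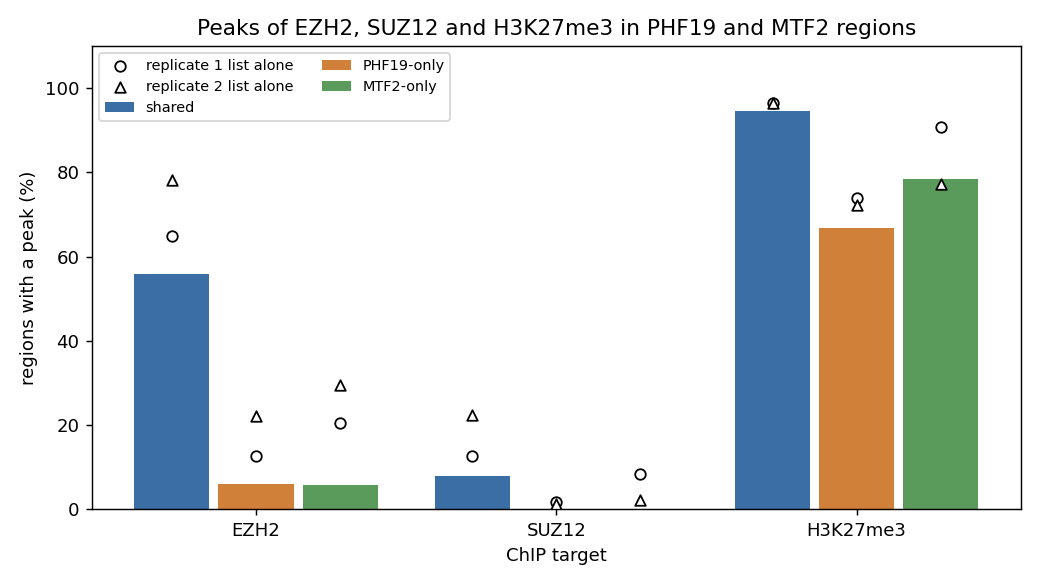
Percent of regions of each class that hold a peak of EZH2, SUZ12 or H3K27me3. Bars are regions called in both replicates, circles the replicate 1 list and triangles the replicate 2 list alone. For EZH2 the shared bar stands at 55.8%, against 5.97% and 5.68%.

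Sharing rose with the PHF19 concentration and with the MTF2 score, and also with the input concentration. When PHF19 regions were put into 4 bins of like size by the authors' mean log2 PHF19 concentration, 37.5% of the lowest bin (5.04 to 5.79) and 84.9% of the highest (7.21 to 10.95) were shared. The median input concentration was 5.04 in shared and 4.45 in PHF19-only regions, beside 6.78 and 6 for PHF19. Shared regions were also wider, with medians of 2686 and 1827 bp. The bins were not matched for width, and the part of width in these concentrations was not tested. In bins by input, chosen after the data were seen, 44.6%, 55.0%, 69.5% and 80.4% were shared, and in bins by PHF19 minus input 56.7%, 48.9%, 63.0% and 80.7%, which is no steady rise. MTF2 regions in 4 bins by the MTF2 replicate 2 score were shared in 11.1%, 31.8%, 64.9% and 91.3%. The difference in EZH2 was present within each bin of either kind and of the input. In the lowest PHF19 bin 36 of 117 shared (30.8%) and 4 of 195 PHF19-only regions (2.05%) held EZH2, and in the highest 220 of 264 (83.3%) and 12 of 47 (25.5%). The lowest MTF2 bin rests on few regions with EZH2, 3 of 41 shared (7.32%) and 1 of 328 MTF2-only regions (0.305%). In the highest MTF2 bin 285 of 337 shared (84.6%) and 16 of 32 MTF2-only regions (50%) held EZH2. Strength was not matched between classes within a bin. H3K27me3 in that bin was as frequent in MTF2-only (96.9%) as in shared regions (97.0%), whereas in the highest PHF19 bin it was in 80.9% of PHF19-only and 97.0% of shared regions. Within single lists, median PHF19 tags of replicate 1 were 79 in shared and 50 in PHF19-only regions with a peak, and PHF19 scores of replicate 2 were 490 and 231. The 419 MTF2-only regions with a PHF19 peak in replicate 2 had a median PHF19 score of 104. Median MTF2 scores of replicate 2 were 2380 in the MTF2 regions that met PHF19, 417 in MTF2-only regions and 661 in the 405 PHF19-only regions with such a peak. The ratio of the first of these to the MTF2-only median was 5.71, and 4.30 without chromosomes 5 and 14. MTF2 replicate 1 holds positions only, so the MTF2 score has no second replicate.

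**Figure D4:**
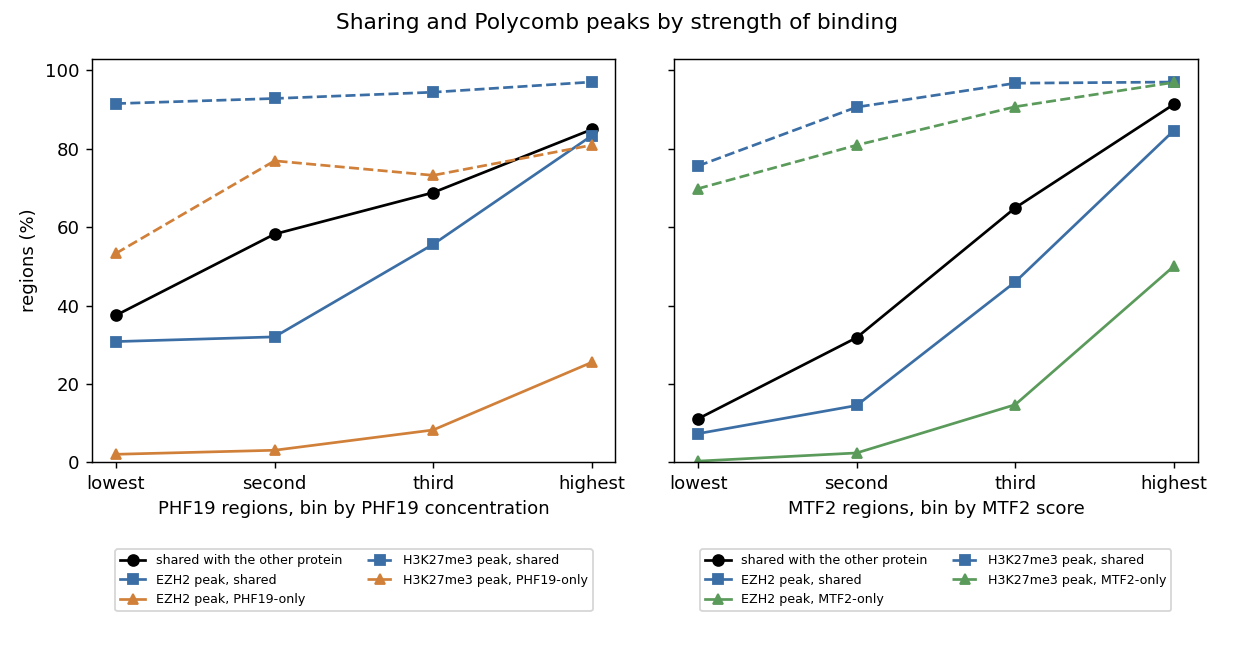
Percent of regions that are shared, and that hold EZH2 (solid lines) or H3K27me3 (broken lines) called in both replicates, in 4 bins of PHF19 regions by the authors' mean log2 PHF19 concentration (left) and of MTF2 regions by replicate 2 score (right). The shared part climbs from 37.5% to 84.9% and from 11.1% to 91.3%.

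Promoters, taken as 2.5 kb to each side of a start site of a protein-coding transcript, were met by 564 (72.7%) of the shared, 249 (53.1%) of the PHF19-only and 312 (42.2%) of the MTF2-only regions. When the midpoint decided, the shares were 67.9%, 50.3% and 39.6%. Taking every list from replicate 1 gave 72.7%, 39.6% and 25.5%, and from replicate 2, where the lists are far longer, 43.6%, 8.38% and 27.6%. Shared regions were the highest in each replicate, while the order of the single classes changed. In the highest bins by PHF19 concentration and by MTF2 score the order turned, with 76.5% of shared and 83.0% of PHF19-only regions in the PHF19 bin, and 85.5% of shared and 96.9% of MTF2-only regions in the MTF2 bin. With PHF19 regions called by the peak caller in both replicates, in place of the authors' table, the shared share was 9.81 points above the PHF19-only share. Without chromosomes 5 and 14 the MTF2-only share was 48.6%, and the others were 74.0% and 53.4%. The median distance from the midpoint to the nearest start site was 808 bp for shared, 2346 bp for PHF19-only and 8747 bp for MTF2-only regions (4582 bp for MTF2-only without chromosomes 5 and 14). With PHF19 regions of the peak caller the medians of shared and PHF19-only regions were 766 and 870 bp, which lie close together. Regions outside both promoters and genes were 144 (18.6%), 137 (29.2%) and 234 (31.6%). EZH2 was in 339 of 564 shared promoter regions (60.1%) and in 94 of 212 shared regions away from promoters (44.3%). In PHF19-only regions the corresponding shares were 9.64% and 1.82%, and in MTF2-only regions 12.2% and 0.935%.

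Shared regions were wider than single regions within each list. Median widths in the authors' table were 2686 bp for shared and 1827 bp for PHF19-only regions, and PHF19 peaks were 2069 and 1482 bp wide in replicate 1 and 2539 and 1780 bp in replicate 2. Among merged MTF2 regions the medians were 4223 bp where PHF19 was met and 2678 bp where it was not. MTF2 peaks in these regions were 3138 and 1842 bp wide in replicate 1 and 3892 and 2400 bp in replicate 2. The differences between classes had the same direction in every list. The classes were set by overlap of these same regions, and wider regions meet more peaks. The part of this in the widths was not tested. Without chromosomes 5 and 14 the shared median was 884 bp above the PHF19-only median in the authors' table (859 bp with them), and among merged MTF2 regions 1564 bp above the MTF2-only median (1544 bp with them).

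CpG content differed between the classes taken whole, and the order changed at promoters and in single lists. In the central 1 kb the median was 6.80 CpG per 100 bases in shared, 4.40 in PHF19-only and 2.60 in MTF2-only regions, beside 5.80 around all protein-coding start sites and 0.985 over the genome. Median GC was 61.6%, 54.4% and 50.8%, beside 59.2% around start sites. CpG island composition, here GC of 50% or more with an observed over expected CpG ratio of 0.6 or more, was found in 68.0%, 45.8% and 37.3% of the regions and 57.7% of start sites. MTF2-only regions ranged widely in CpG content. Under 2 CpG per 100 bases were 346 of them (46.8%), against 8.63% of shared and 26.2% of PHF19-only regions, and their 75th percentile was 7.80. At promoters MTF2-only regions were the highest, with medians of 7.95 against 7.50 in shared and 6.50 in PHF19-only regions, whereas away from promoters the medians were 4.70 in shared, 2 in PHF19-only and 1.10 in MTF2-only regions. Without chromosomes 5 and 14 the MTF2-only median was 4.10, below the 4.60 of PHF19-only regions. With every list from replicate 1 the medians were 7.10 in shared, 3.40 in PHF19-only and 1 in MTF2-only regions, and from replicate 2 they were 2.70, 1 and 1.60. With PHF19 regions of the peak caller the medians were 6.90 in shared and 6.30 in PHF19-only regions. CpG-poor MTF2-only regions seldom held EZH2 (1.45%) yet held H3K27me3 (77.5%) about as often as the other MTF2-only regions (79.2%). The share of CpG-poor regions and their EZH2 and H3K27me3 shares were not computed without chromosomes 5 and 14. Of the sequences shown, that of VENTX, a homeobox gene, has 11 CG per 100 bases and that of DLGAP4, a postsynaptic scaffold gene, has 1, both at promoter regions of the MTF2-only class.

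**Figure D5:**
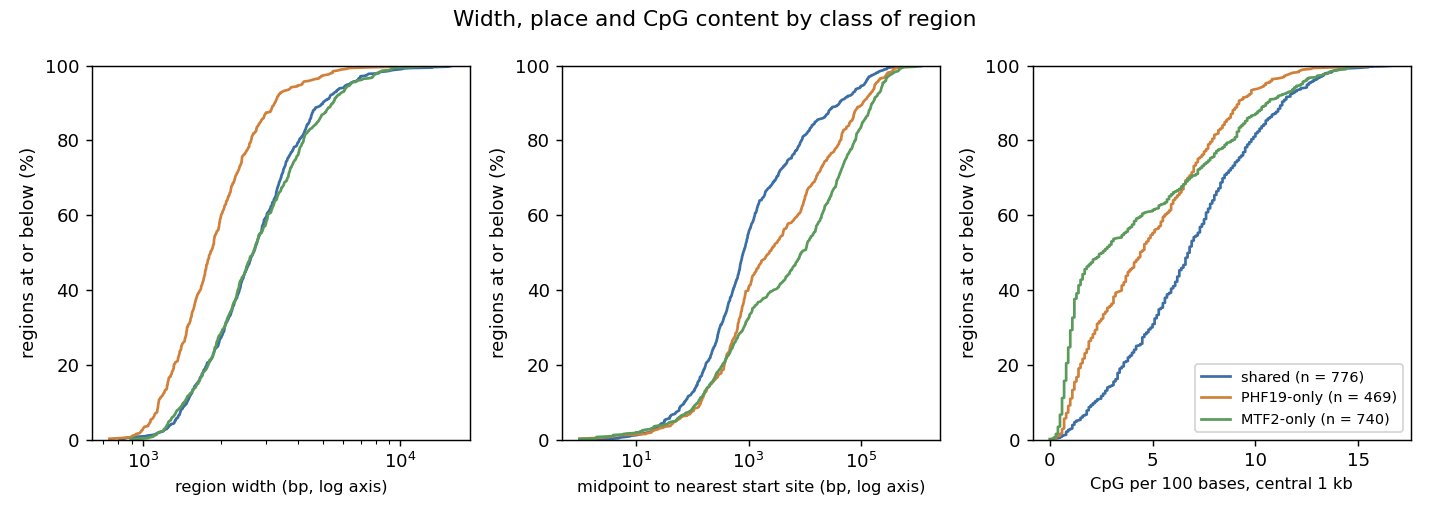
Cumulative percent of regions of each class by width in bp, by distance from the midpoint to the nearest start site in bp (both log axes) and by CpG per 100 bases in the central 1 kb. Widths come from the authors' table for shared and PHF19-only regions (medians of 2686 and 1827 bp) but from merged peaks for MTF2-only regions, whose curve of CpG content climbs steeply below 2, where 46.8% of them lie.

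The regions for which no peak of the other protein stood in either list, a choice made after the data were seen, differed from their classes. The 62 PHF19-only regions of this kind met a promoter in 4 cases (6.45%), met an H3K27me3 region called in both replicates in 10 (16.1%) and an EZH2 region in 0, and had a median of 1.20 CpG per 100 bases and a median width of 1306 bp. An H3K27me3 peak of replicate 1 lay in 19 and one of replicate 2 in 4, since a region merged from both lists can be met through a peak of 1 of them. No EZH2, SUZ12 or H3K27me3 peak of any list lay in 42 of the 62 (67.7%). Their PHF19 values were low, with a median of 31 tags in the 24 with a replicate 1 peak. The 319 MTF2-only regions of this kind met a promoter in 96 cases (30.1%), held H3K27me3 in 217 (68.0%) and EZH2 in 6 (1.88%), and also had a median of 1.20 CpG per 100 bases. An EZH2 peak of replicate 1 lay in 55 of them (17.2%) and one of replicate 2 in 47 (14.7%). Of the 319 regions, 51 (16.0%) lay on chromosome 14 and 36 on chromosome 5. The 405 PHF19-only regions with an MTF2 peak in replicate 2 met promoters in 60.5% and held H3K27me3 in 74.6% and EZH2 in 28 (6.91%).

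A gene counted as a target when a region met its body or the 2.5 kb before its start. Of 20163 protein-coding genes, 639 (3.17%) were targets of both PHF19 and MTF2 regions, 297 (1.47%) of PHF19 regions only and 369 (1.83%) of MTF2 regions only. The counts were 581, 245 and 336 without chromosomes 5 and 14. With every list from replicate 2 alone, 4069 genes were targets of both. Only 17 of the 639 were reached by separate regions and by no shared one. The share with an H3K27me3 region was 96.4% for targets of both, 70.0% for PHF19 only and 84.3% for MTF2 only, and 8.07% for the 18858 genes with neither. An EZH2 region lay in 59.2%, 8.08%, 11.1% and 0.0265% of them.

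Families of developmental transcription factors are given beside the shares over all genes, which were 3.17% for both, 1.47% for PHF19 only and 1.83% for MTF2 only. Of 105 homeobox genes outside the HOX clusters, 43 (41.0%) were targets of both, 9 of PHF19 only and 7 of MTF2 only. This list was made from named families and lacks other homeobox genes with a region, such as VENTX, LBX1, DBX1 and BSX. The first genes of the list by peak value were PAX5, EMX1, IRX5 and PAX2 for both (871, 725, 508 and 439 PHF19 replicate 1 tags) and PAX9, BARX2, SHOX2 and ISL2 for PHF19 only (478, 150, 87 and 67 tags). For MTF2 only they were POU4F3, TLX1, TLX3 and CDX2, with MTF2 replicate 2 scores of 2928, 2230, 1966 and 1427. Forkhead genes gave 12 of 46 for both (26.1%), led by FOXC1 (733 tags) and FOXB2 (534), 2 for PHF19 only (FOXP2 and FOXE1) and 0 for MTF2 only. SOX genes gave 6 of 19 for both (31.6%), led by the stem cell factor SOX2 (310 tags), with SOX9 (70 tags) under PHF19 only and SOX8, SOX14 and SOX3 under MTF2 only. Of 6 GATA genes, GATA3 (196 tags), GATA4 and GATA5 were targets of both and GATA6 (235 tags) of PHF19 only. Of 17 T-box genes, TBX1 was a target of both, and TBX2 and TBR1 of PHF19 only.

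Of 39 HOX cluster genes 1 (2.56%) was a target of both, HOXD13, beside 3.17% of all genes. HOXB7 and HOXB8 (102 tags each), HOXD10 and HOXD11 (65 each) and HOXD12 were targets of PHF19 only, and HOXD3 of MTF2 only. WNT ligands and Frizzled receptors gave 6 of 29 for both (20.7%, WNT1 and WNT7A first), 0 for PHF19 only and 3 for MTF2 only, which were WNT11, WNT9B and WNT5A (MTF2 replicate 2 scores of 3100, 1770 and 711). BMP ligands and antagonists gave 6 of 23 for both (26.1%, with BMP4 at 532 tags and BMP6 at 120 first) and BMP7 (score 3100) for MTF2 only. Eph receptors and ephrins gave EFNA3 and EFNB2 for both, and EPHA8 and EPHB3 for MTF2 only, of 22. Of 33 Polycomb group genes, CBX8, CBX2 and BMI1, which encode subunits of Polycomb repressive complex 1, were among the targets of both, and EPOP was a target of PHF19 only. None of 84 cytosolic and 78 mitochondrial ribosomal protein genes, 39 proteasome subunit genes or 53 clustered protocadherins was a target in any class. Of 508 ZNF genes, 2 were targets of both, 5 of PHF19 only and 2 of MTF2 only.

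Among shared promoter regions, high PHF19 replicate 1 values were at TCHH (1035 tags), which encodes the hair follicle protein trichohyalin, the B cell factor PAX5 (871), CBX8 (851) and the RNA-binding protein gene IGF2BP3 (832). All 4 had an MTF2 replicate 1 peak and an MTF2 replicate 2 score of 3100, a value that 279 shared regions had in common. The EZH2 scores at PAX5 (chr9:37033519-37038691) were 728 in replicate 1 and 1082 in replicate 2, and those of SUZ12 were 166 and 252. At TCHH (chr1:152079360-152086880) EZH2 had scores of 228 and 466, and H3K27me3 a peak in replicate 2 only (673).

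The leading PHF19-only promoter regions were at PAX9 (478 tags), MLLT6 (421), a gene known as a fusion partner of MLL, INSM2 (273), the netrin receptor gene UNC5B (257) and ATL1 (246), whose region also met the promoter of MAP4K5. PAX9, INSM2 and ATL1 are on chromosome 14. None of these had an MTF2 peak in replicate 1, but the MTF2 replicate 2 score was 2225 at MLLT6 and 3100 at the other 4, so none is a place without MTF2 in every list. EZH2 was absent from both lists at PAX9 (chr14:37120697-37133976). At MLLT6 (chr17:36857325-36861486) its scores were 84.3 and 99.3. The authors' mean log2 concentrations at PAX9 were 9.81 for PHF19 and 8.86 for input, while at MLLT6 they were 9.62 and 6.51.

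The leading MTF2-only promoter regions, by printed MTF2 replicate 2 score, were at VENTX (3224), DLGAP4 (3203), the homeobox gene NKX2-2 (3148) and SEMA6A (3128), which encodes a semaphorin. PSD (3100) followed, with a score shared by 11 promoter regions of the class, among which it came first by position. Exactly 3100 was also the score of 279 shared regions. It may be a ceiling of the score, so the order of regions at and above it is not firm. Each of the named regions had a PHF19 peak in replicate 2, with scores of 99.0, 75.6, 153, 343 and 261, and none in replicate 1. The replicate 2 median was 231 in PHF19-only regions. EZH2 replicate 2 scores of 522, 701 and 569 were found at VENTX (chr10:135048578-135053207), DLGAP4 (chr20:34889161-34897036) and NKX2-2 (chr20:21495609-21503771). NKX2-2 is among the targets of both proteins as well, through another region.

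Genes whose sites the study measured by ChIP-qPCR lay mostly in the shared class. The stress-induced factor ATF3, the MAP kinase phosphatase DUSP4, IGFBP3, the vitamin D hydroxylase CYP24A1 and the ephrin EFNA3 each had 1 shared promoter region, with 559, 586, 157, 189 and 392 PHF19 tags. MLLT6 had a PHF19-only region. EGLN3, a prolyl hydroxylase gene on chromosome 14, had a PHF19-only region at a promoter (chr14:34417200-34423051, 172 tags, MTF2 replicate 2 score 2313). It also had MTF2-only regions over the gene, each with an MTF2 replicate 2 score of 120 or less. A shared region in its gene body had an MTF2 replicate 2 score of 50.2. That shared region met no peak of either PHF19 list and none of MTF2 replicate 1. GATA2, the negative control, had no region. In the separate lists it had 1 MTF2 peak in replicate 2, with a score of 141, and 0 peaks in each of the other 9 lists.

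PHF19-only promoter regions with no EZH2, SUZ12 or H3K27me3 peak in any list numbered 34 of 249 (13.7%), against 10 of 312 (3.21%) in the MTF2-only class and 4 of 564 shared promoter regions. These were chosen after their values were seen. The highest authors' mean log2 PHF19 concentrations among them were at RUNX1 (7.50), which encodes a blood cell factor, and BCAT1 (7.44), which encodes an aminotransferase of branched-chain amino acids. PHF19 had peaks of 107 and 95 tags in replicate 1 and scores of 1209 and 542 in replicate 2 there. An MTF2 peak of replicate 2 lay in 31 of the 34, and their median CpG content was 5.80 per 100 bases.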

How the data were processed

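ChIP-seq peak lists of PHF19, MTF2, EZH2, SUZ12 and H3K27me3 in DU145 shCTR cells, 2 replicates each, and the authors' table of PHF19 regions were used. The authors mapped reads with Bowtie to hg19 (GRCh37), with the fly genome dm3 for spike-in samples, kept uniquely placed reads, and ran MACS separately for each library with its own control. Peak scores are those of MACS in the deposited lists, PHF19 replicate 1 holds tags, and MTF2 replicate 1 holds positions only, with starts counted from 1. The log2 concentrations are the authors' deposited means over both replicates from DiffBind, whose fold, P value and FDR columns were not used. Lists carry no spike-in scaling, and values of different lists are on different scales.

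Peaks of 2 replicates were merged at an overlap of 1 bp or more, and merged regions with a peak from both were kept. Python 3.11.15, numpy 2.4.6, pandas 2.3.3 and matplotlib 3.10.9 were used. Start sites were those of 20163 protein-coding genes in GENCODE 44, lifted to GRCh37. The overlap code was tested on simulated data. Regions are not replicates and each target has only 2 replicates, so no test was run, and the values from each replicate list stand as the error. Named genes were the ChIP-qPCR sites, up to 5 leading promoter regions of each class, and up to 4 members of each gene list by class in order of the same peak value (PHF19 replicate 1 tags, or MTF2 replicate 2 score for MTF2 only). Members and lists were chosen with earlier results of these data known. Alternatives were a cover of 50%, either replicate, peak caller regions of PHF19, a score of at least 100, left-out replicates, other promoter and gene windows, the central 1 kb and autosomes, and 2 added later. Knockdown, input, IgG and RNA-seq samples were not analysed here.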

Additional observations from a re-analysis of the deposited data

How the results depend on the processing

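Over 16 alternatives, 174 values of the main results moved by less than the spread between replicates or, for gene counts and for ratios of medians, stayed within 1.5 times the main value. Another 63 moved by more and 1 reversed. Differences are shared minus the named class, in percentage points for shares. The cause of the moves was not tested. With single replicate lists left out in turn, for all lists or for MTF2 alone, the shared share of PHF19 regions (62.3% in the main result) ran from 38.8% to 94.8% and that of MTF2 regions (49.8%) from 3.67% to 30.0%. Against PHF19-only regions, the promoter difference (19.6) ran from 20.1 to 62.4, median distance to a start site (-1538 bp) from -60260 to -1735 bp, width (859 bp) from 478 to 1066 bp, H3K27me3 (27.7) from 27 to 70.8, CpG (2.40 per 100 bases) from 1.70 to 5.10 and the PHF19 score ratio (2.12) from 1.43 to 5.28. Against MTF2-only regions, distance (-7938 bp) ran from -29610 to -9781 bp, width (1544 bp) from 1045 to 2334 bp, EZH2 (50.1) from 21.0 to 53.5, H3K27me3 (16.1) from 27.9 to 66.8 and the MTF2 score ratio (5.71) from 2.83 to 20.9. The SUZ12 difference (7.86) ran from -2.81, with replicate 1 lists alone, to 7.95. Target genes of both (639) ran from 513 to 4069 and their share of PHF19 targets (68.3%) from 67.2% to 99.6%. With MTF2 regions of either replicate the shares were 95.0% of PHF19 and 3.53% of MTF2 regions. Differences from PHF19-only were then 61.9 for promoters, -47359 bp for distance, 1064 bp for width, 71.4 for H3K27me3 and 5.10 for CpG, those from MTF2-only 2486 bp for width and 66.9 for H3K27me3, the score ratios 21.2 for MTF2 and 5.27 for PHF19, and the gene share 99.6%. PHF19 regions called in both replicates by the peak caller gave 37.3% of MTF2 regions shared, a promoter difference of 9.81, a width difference of 673 bp and a CpG difference of 0.6, each against PHF19-only, where the distance difference was -104 bp. A score of at least 100 gave 54.7% of MTF2 regions shared, and differences from MTF2-only of 32.9 for EZH2 and 3.11 for SUZ12. Peaks of either replicate gave SUZ12 differences of 24.1 and 16.5 and H3K27me3 differences of 18.5 and 4.90 from PHF19-only and MTF2-only. A midpoint rule gave a promoter difference of 17.6 from PHF19-only. Of the alternatives chosen after seeing the data, leaving out chromosomes 5 and 14 moved none of these differences, ratios and shared parts beyond these limits, but for MTF2-only regions it moved the promoter share from 42.2% to 48.6% and the median CpG from 2.60 to 4.10. The distance difference from MTF2-only (-7938 bp) became -3802 bp, and the CpG difference from MTF2-only (4.20) became 2.70. The limits for these 2 were wide, at 10892 bp and 3.54, because each is the spread of 2 replicate values. Staying within such limits does not show that the skew left the differences unchanged. Also chosen after seeing the data was asking for no peak of the other protein in either list. It gave differences from PHF19-only of 66.2 for promoters, -47444 bp for distance, 1380 bp for width, 78.3 for H3K27me3 and 5.60 for CpG, and of -19056 bp for distance from MTF2-only. No paired analysis was run because no result comes from a test, and the values from the lists of each replicate number stand in its place. With 2 replicates of unequal list length, a class without a call of the other protein may hold binding below that list's threshold, and depth is not known.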
